A study of Arabidopsis thaliana with 15 samples.

Results

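MRD1 (AT1G53480), HEI10 (AT1G53490), AT5G35935 and AT3G29120 are 4 of the 33326 genes in a TPM table of Arabidopsis thaliana inflorescence meristems. They were picked because their levels in the lines labelled myb3r1, myb3r4 and myb3r1myb3r4 stood apart from Col-0 by a like amount while a line labelled pMYB3R4::GFP-MYB3R4mNES did not. HEI10 was included as the gene whose exons overlap those of MRD1. Their levels in the 5 groups therefore chose them, so those levels are given as a description, with no test. Arabidopsis Col-0 served as the wild type, the next 3 groups are called the mutants here, with myb3r1myb3r4 as the double mutant, and the transgenic group is called the mNES line.

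RNA-seq covered 15 libraries, 3 in each group, with 36 pooled meristems behind each. All plants were kept under days of 16 h light (170 µmol m-2 s-1) with nights of 8 h, at 21 °C and 17 °C, until stems measured about 1 cm. The labels give neither the mutant alleles, nor the background that carries the transgene, nor what mNES stands for. Libraries with the same replicate number also share a shift experiment number across the groups, which the labels do not explain. The labels do not say whether replicates came from separate plants, so p-values below measure the spread between these samples. The transgene is a GFP fusion of MYB3R4 under the MYB3R4 promoter.

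MYB3R proteins are MYB transcription factors with several repeats of the DNA-binding domain, known for switching genes of the G2 and M phases on or off through the MSA element. HEI10 is a RING finger protein of the ZMM group, which in plants is required for class I meiotic crossovers and marks the sites where they form. MRD1 takes its name, mto1 responding down, from a transcript that is lower in an Arabidopsis mutant that over-accumulates soluble methionine, and its molecular role is not known. Both other genes are annotated as pseudogenes, which give transcripts without a known protein product.

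Values are TPM, a transcript level per length scaled to the same total in every library, so that levels of different genes can be compared. TPM keeps no read totals, and the depth of each library is unknown. In bulk tissue, fewer cells of a type and less RNA per cell cannot be told apart. Between 20370 and 20965 genes reached 1 TPM in a library. The transcript of MYB3R1 stood at 13.1 to 13.5 TPM in Col-0, and libraries labelled myb3r1 held 17.2 to 18.1 TPM. That of MYB3R4 stood at 10.4 to 12.8 TPM in Col-0, while libraries labelled myb3r4 held 12.7 to 13.4 TPM and the mNES libraries 58.9 to 63.5 TPM. So neither target transcript was reduced in its own mutant. A gene-wide level does not show whether the gene is disrupted, and the mutant groups are known here by their labels only. Of 7 meristem markers, 6 were at 1 TPM or more in every library and none was listed at 0 throughout a group. The other was CLV3, with a mean of 0.136 TPM in Col-0. All 7 tapetum markers described below were also at 1 TPM or more in every library, so these levels do not give the share of meristem cells.

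The 3 loci lie on different chromosomes in the RefSeq TAIR10.1 annotation. MRD1 covers 1666 bp on the minus strand (chr1:19963047-19964712), and HEI10 covers 3686 bp on the plus strand (chr1:19963267-19966952). AT5G35935 covers 6504 bp in 1 exon on the minus strand (chr5:14083388-14089891), 10.4 Mb from MYB3R4 on the same chromosome. AT3G29120 covers 694 bp on the plus strand (chr3:11098505-11099198). The 300 bases before the annotated start of each were read from the genome, because the 3 loci share a pattern across the groups. They are printed 5′ to 3′ on the strand of the gene, and capitals mark a match to AACGG, the core of the MSA element.
MRD1 (chr1:19964713-19965012, minus strand): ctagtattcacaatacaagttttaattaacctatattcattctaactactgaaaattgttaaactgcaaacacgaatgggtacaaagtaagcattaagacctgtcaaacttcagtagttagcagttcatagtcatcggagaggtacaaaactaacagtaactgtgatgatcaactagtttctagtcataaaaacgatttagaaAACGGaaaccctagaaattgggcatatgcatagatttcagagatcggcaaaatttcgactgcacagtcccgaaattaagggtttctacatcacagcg
AT5G35935 (chr5:14089892-14090191, minus strand): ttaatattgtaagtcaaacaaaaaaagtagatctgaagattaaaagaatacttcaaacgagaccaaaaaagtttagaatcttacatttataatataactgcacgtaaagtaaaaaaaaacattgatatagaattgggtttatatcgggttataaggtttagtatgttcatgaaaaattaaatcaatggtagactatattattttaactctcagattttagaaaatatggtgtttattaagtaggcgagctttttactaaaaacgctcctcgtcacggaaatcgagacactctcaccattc
AT3G29120 (chr3:11098205-11098504, plus strand): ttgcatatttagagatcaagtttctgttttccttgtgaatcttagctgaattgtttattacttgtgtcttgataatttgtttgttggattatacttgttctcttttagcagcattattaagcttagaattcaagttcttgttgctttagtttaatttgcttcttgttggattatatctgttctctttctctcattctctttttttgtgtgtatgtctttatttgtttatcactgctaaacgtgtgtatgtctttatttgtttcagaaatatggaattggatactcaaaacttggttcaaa
The core was searched on both strands, that is, as AACGG and CCGTT. MRD1 held 1 match, in a window that lies inside an intron of HEI10, and the windows of AT5G35935, AT3G29120 and HEI10 held none. The core was present in 23.8% of 32569 windows of the same length before annotated genes. TCAACGG and TGAACGG, longer strings that contain the core, were present in 2.19% and 1.3% of the windows and in none of the 4. The full MSA element was not searched. A match is a description of letters and not of binding. GC content was 35.7% before MRD1, 28.3% before AT5G35935 and 29.3% before AT3G29120.

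MRD1 differed from Col-0 by more than the other three genes on the log2(TPM + 0.5) scale, while by ratio of the means AT5G35935, near 0 in Col-0, differed by more. The MRD1 level was 44.5, 43.4 and 49.2 TPM in the Col-0 libraries, a mean of 45.7 TPM (SD 3.1, n = 3). In the mNES line it was 40.7, 42.2 and 41.8 TPM, a mean of 41.6 TPM (SD 0.761, n = 3). These 6 libraries were all high, and the mNES libraries lay just below the Col-0 libraries without overlap. The myb3r1 libraries held 0.302, 0.0707 and 0.2 TPM (mean 0.191, SD 0.116). The myb3r4 libraries held 0.55, 0.254 and 0.578 TPM (mean 0.461, SD 0.179). The double mutant held 0.108, 0.248 and 0.217 TPM (mean 0.191, SD 0.0736). All 9 mutant libraries were near 0. The myb3r1 libraries overlapped with both other mutants, and the lowest myb3r4 library (0.254 TPM) lay just above the highest of the double mutant (0.248 TPM). The mutant means were 0.418%, 1.01% and 0.418% of the Col-0 mean in myb3r1, myb3r4 and the double mutant, against 91% in the mNES line. On the log2(TPM + 0.5) scale MRD1 was lower than in Col-0 by differences of -6.08, -5.60 and -6.07 in that order, with -0.13 in the mNES line (SE 0.15 each). The added 0.5 makes these differences smaller than the ratio of the TPM, and with 0.1 added the myb3r1 difference was -7.38.

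HEI10 had the same shape with a smaller difference. It stood at 8.23, 7.48 and 6.59 TPM in Col-0 (mean 7.43, SD 0.824, n = 3) and at 7.45, 6.57 and 7.25 TPM in the mNES line (mean 7.09, SD 0.461). Both of these groups were high and overlapped. In myb3r1 it stood at 1.74, 2.06 and 1.99 TPM (mean 1.93, SD 0.169), and in myb3r4 at 2.73, 2.49 and 2.53 TPM (mean 2.58, SD 0.128). Double mutant libraries held 3.29, 2.69 and 2.54 TPM (mean 2.84, SD 0.398). All 9 mutant libraries were below every Col-0 and mNES library and above every mutant library of MRD1. The double mutant and myb3r4 overlapped, while myb3r1 lay below both without overlap. The mutant means were 26%, 34.7% and 38.2% of Col-0, against 95.4% in the mNES line. The log2 differences from Col-0 were -1.70 in myb3r1, -1.36 in myb3r4, -1.25 in the double mutant and -0.06 in the mNES line (SE 0.11 each).

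AT5G35935 went the other way, from almost nothing to a level close to that of HEI10 in wild type. Its level was 0.0254, 0.00887 and 0 TPM in Col-0 (mean 0.0114) and 0.0446, 0.00894 and 0.0131 TPM in the mNES line (mean 0.0222). These 6 libraries were at or near 0 and the groups overlapped. The pseudogene stood at 8.03, 6.92 and 7.38 TPM in myb3r1 (mean 7.44, SD 0.558, n = 3), and at 6.90, 7.27 and 6.81 TPM in myb3r4 (mean 7.0, SD 0.244). It reached 8.60, 8.19 and 8.65 TPM in the double mutant (mean 8.48, SD 0.25). All 9 mutant libraries were high. The single mutants overlapped, and the double mutant lay above both without overlap. Log2 differences from Col-0 were 3.95, 3.87 and 4.13 in myb3r1, myb3r4 and the double mutant, and 0.03 in the mNES line (SE 0.093 each). With Col-0 this close to 0 the size of the difference follows the added constant, and in myb3r1 it ran from 3.06 with 1 added to 6.08 with 0.1 added.

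AT3G29120 was also higher in the mutants, from a low level that varied in Col-0. Its level was 0.468, 2.32 and 1.82 TPM in Col-0 (mean 1.54, SD 0.958, n = 3) and 2.09, 0.988 and 1.12 TPM in the mNES line (mean 1.40, SD 0.605). Both groups were low and overlapped, and replicate 1 of Col-0 was the lowest library of the 15. The level was 8.87, 9.33 and 9.99 TPM in myb3r1 (mean 9.40, SD 0.562), and 9.43, 11.2 and 10.4 TPM in myb3r4 (mean 10.3, SD 0.906). The double mutant held 7.44, 7.58 and 8.82 TPM (mean 7.95, SD 0.76). All 9 mutant libraries were high, the single mutants overlapped, and the double mutant lay below both without overlap, the opposite of its place for AT5G35935. Log2 differences from Col-0 were 2.42, 2.55 and 2.19 in myb3r1, myb3r4 and the double mutant, and -0.01 in the mNES line (SE 0.31 each).

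**Figure D1:**
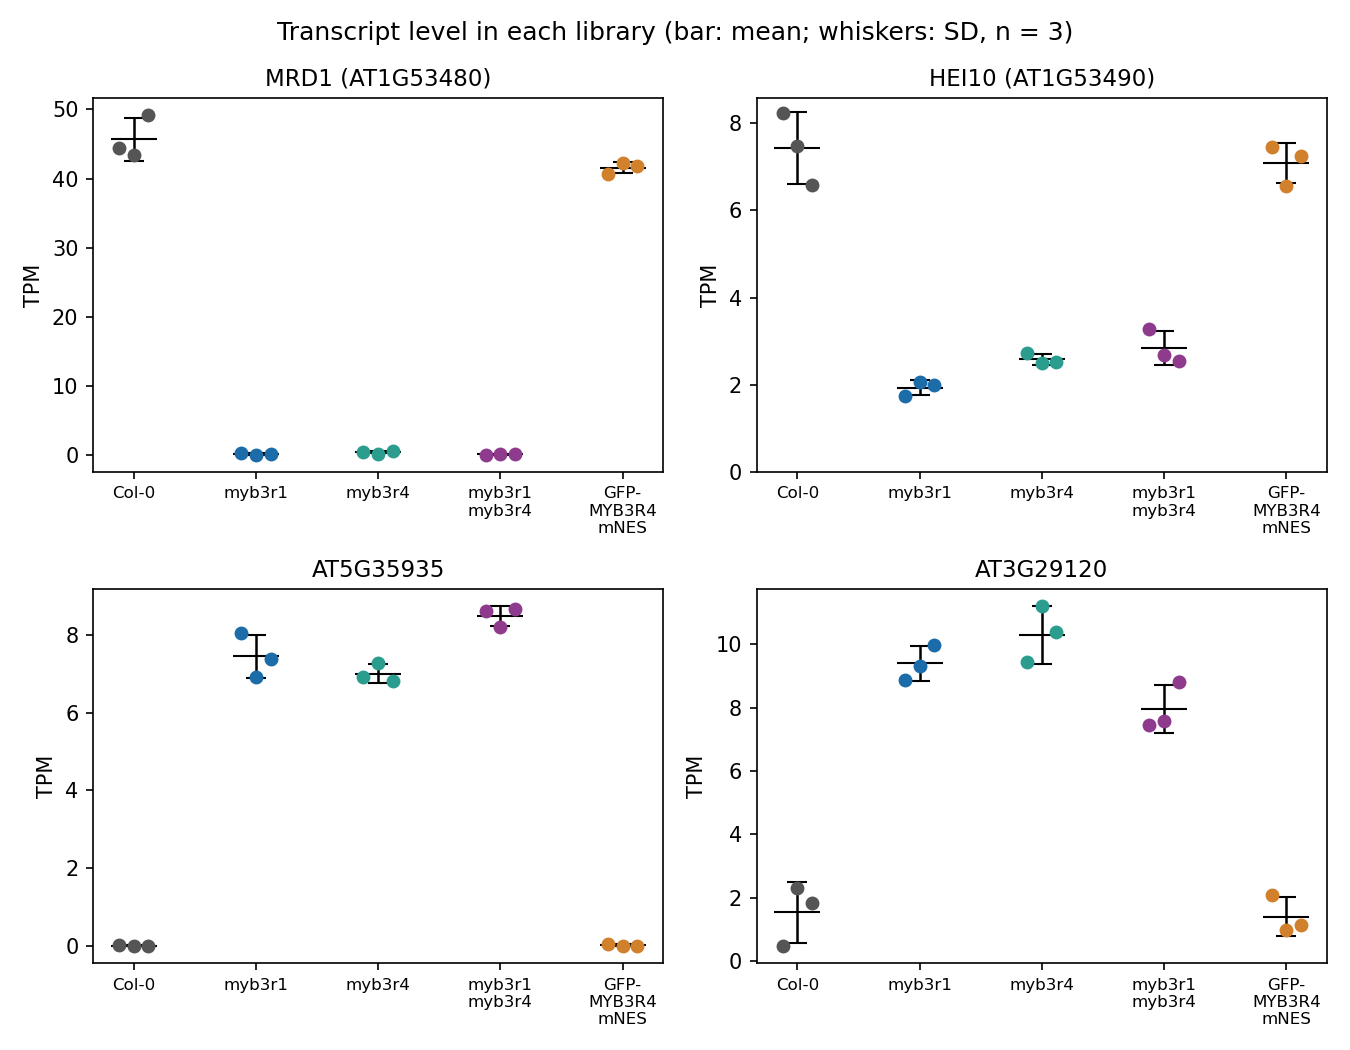
TPM of the 4 genes in each of the 15 libraries (points), by group on the horizontal axis, with the mean (bar) and SD (whiskers) of 3 libraries; each panel has its own TPM axis. The 9 mutant libraries lie apart from the 6 Col-0 and mNES libraries for every gene, below them for MRD1 and HEI10 and above them for AT5G35935 and AT3G29120.

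For each of the 4 genes, the 9 mutant libraries did not overlap with the 6 Col-0 and mNES libraries. This holds for 5.42% of the 21737 genes tested, with 2.56% higher and 2.86% lower in the mutants, and nothing is read from the count since the genes were chosen for it. The gap between the nearest libraries on either side was 5.26 for MRD1 on the log2(TPM + 0.5) scale, the widest of all genes tested. It was 3.75 for AT5G35935, rank 2, then 1.49 for AT3G29120, rank 4, and 0.90 for HEI10, rank 9. The genes were chosen for this separation, so the ranks are a description and no test. Gaps that start near 0 TPM also depend on the added 0.5. The 3 mutant differences of a gene lay within 0.47 of each other for MRD1, 0.45 for HEI10, 0.26 for AT5G35935 and 0.36 for AT3G29120. The double mutant was not set further from Col-0 than both single mutants in 3 of the 4 genes. Its log2 difference from myb3r1 was 0.01 for MRD1, 0.45 for HEI10, 0.18 for AT5G35935 and -0.23 for AT3G29120. Its log2 difference from myb3r4 was -0.46, 0.11, 0.26 and -0.36 in the same order.

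The rule was put into numbers to see how many other genes have the pattern. It asked for an adjusted p under 0.05 (limma, Benjamini-Hochberg) in the same direction in all 3 mutants, log2 differences of at least 1 in size that lay within 0.5 of each other, and no call and at most 0.5 in the mNES line. The 3 mutant contrasts share the Col-0 libraries. The 4 genes were chosen on these same differences, so that they meet the rule was fixed by their choice and is no test of them. In all, 469 genes (2.16%) were called in 1 direction in the 3 mutants, 221 higher and 248 lower, and 225 of them were not called in the mNES line. The whole rule left 7 genes (0.0322%), and beside the 4 they were AT5G37474, AT1G67626 and AT3G60164. AT5G37474, annotated as a putative membrane lipoprotein, was listed at 0 in all 9 mutant libraries and at 0.882 to 2.85 TPM in the other 6. It lies 0.792 Mb from AT5G35935 on chromosome 5. The pseudogene AT1G67626 had log2 differences of -1.63, -1.85 and -1.36 in myb3r1, myb3r4 and the double mutant and of 0.16 in the mNES line, and its range of 0.50 was the widest inside the limit. The transcribed pseudogene AT3G60164 had differences of 1.31, 1.59 and 1.74, with 0.43 in the mNES line. HEI10, at 1.25 in size, had the smallest difference inside the limit. Just outside were AT3G13404, with 0.86, 1.23 and 1.04 in the mutants and 0.23 in the mNES line, and the transcribed pseudogene AT3G30122, with -1.29, -1.94 and -1.85 and 0.29. The count stood at 3 with 0.1 added in place of 0.5, where MRD1 and HEI10 no longer met the limits, and at 4 among genes of at least 5 TPM, which were the genes described here. MRD1 left the set without replicate 1 of myb3r1, replicate 2 of myb3r4 or replicate 2 of the double mutant, and HEI10 without replicate 3 of the double mutant.

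**Figure D2:**
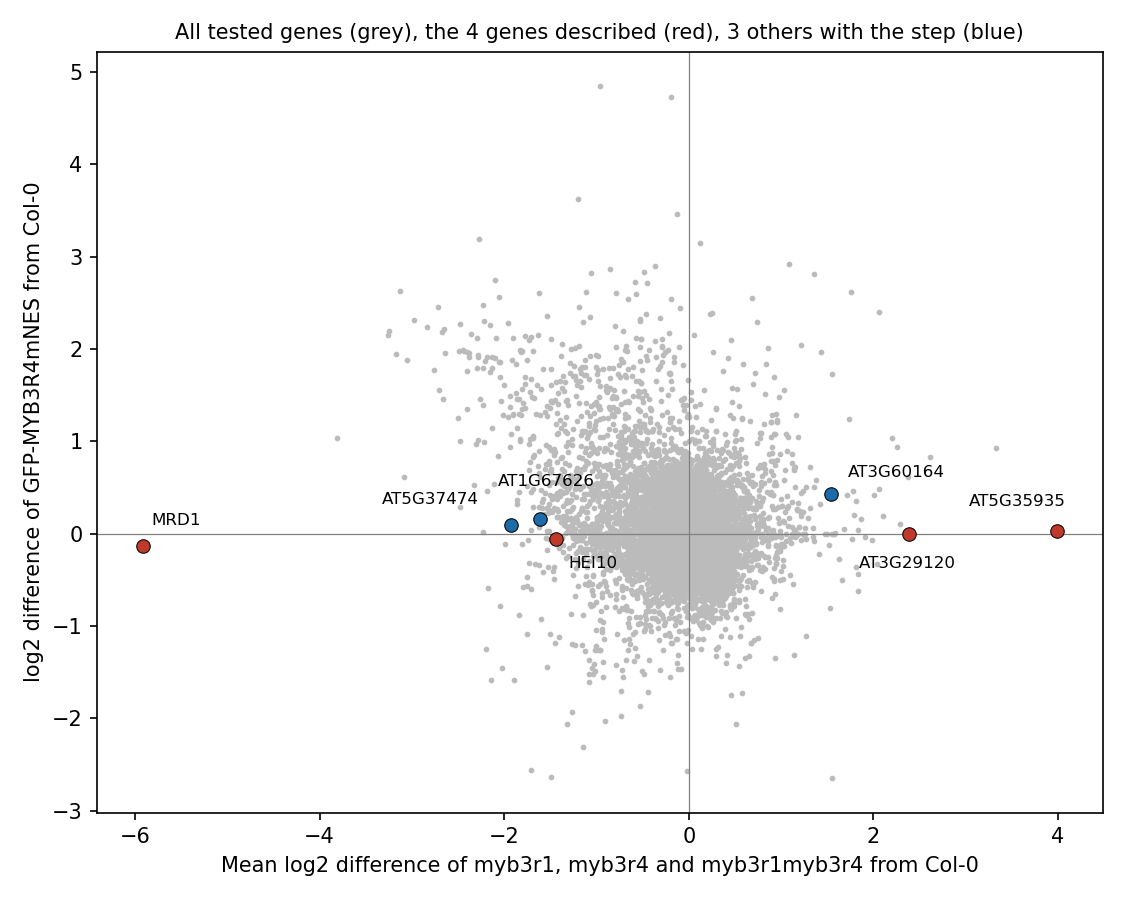
Each grey point is 1 of 21737 tested genes, with the mean of the 3 mutant log2 differences from Col-0 on the horizontal axis and the log2 difference of the mNES line from Col-0 on the vertical axis; both axes share the Col-0 libraries. Red points are the 4 genes described and blue points the 3 others that met the rule; MRD1 lies furthest left and AT5G35935 furthest right, both near 0 on the vertical axis.

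MRD1 and HEI10 are antisense to each other and share 1446 bp of their spans. Of the 1250 exonic bp of MRD1, 922 (73.8%) lie in exons of HEI10, and so do 474 of its 582 coding bp (81.4%). From the side of HEI10, the shared bases are 40.9% of its 2252 exonic bp and include 0 of its 915 coding bp, since they fall in the non-coding leader of its longer transcript. Another annotated gene, the long non-coding RNA AT1G07887, runs along the same strand as HEI10 over 83.1% of the exonic bases of MRD1, and it is not analysed here. The sources used here do not state whether strand was used in the counting. If it was not, reads from the shared bases cannot be told apart. The HEI10 values are then uncertain by as much as MRD1 reads enter them.

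**Figure D3:**
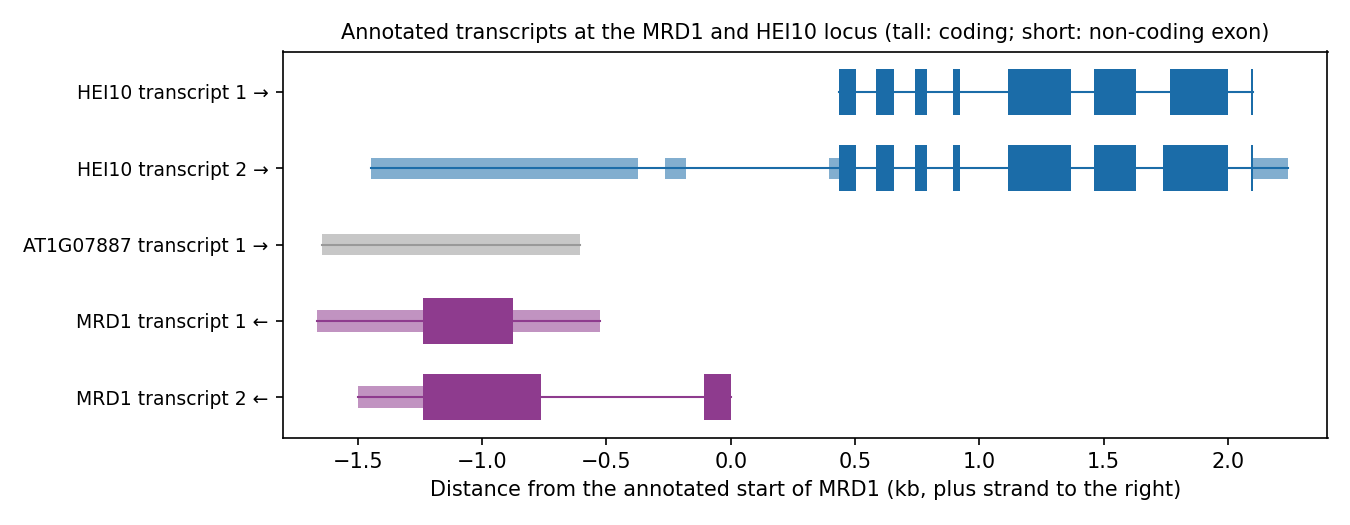
Annotated transcripts of MRD1, HEI10 and AT1G07887, with distance in kb from the annotated start of MRD1 on the horizontal axis; arrows give the strand, tall boxes are coding and short boxes non-coding exons. The coding exons of HEI10 lie outside MRD1, and its long non-coding first exon lies across the exons of MRD1.

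The ratio of the pair shows how unequal the change was. MRD1 stood at 5.41 to 7.47 times the TPM of HEI10 in Col-0 and at 5.47 to 6.42 times in the mNES line. In the mutants the ratio was 0.0343 to 0.173 in myb3r1, 0.102 to 0.229 in myb3r4 and 0.0327 to 0.0921 in the double mutant. MRD1 was thus the more abundant transcript of the pair in 6 libraries and the less abundant in the 9 mutant libraries. Summed over the pair, a value that depends less on how shared reads were split, the level was 48.2 to 55.8 TPM in the Col-0 and mNES libraries and 2.04 to 3.4 TPM in the mutants. The summed log2 differences from Col-0 were -4.35 in myb3r1, -3.92 in myb3r4 and -3.93 in the double mutant.

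Copies elsewhere in the genome can also share reads with these genes. A search of the MRD1 span against the genome found an alignment of 89.92% identity over 1061 bp on chromosome 5 at AT5G03090, which was listed at 0 to 0.613 TPM in all libraries. A stretch of 558 bp with 91.94% identity lies elsewhere on chromosome 1 and one of 221 bp with 93.21% on chromosome 2. AT5G35935 aligned over 1662 bp with 77.62% identity to AT5G07685, which was listed at 0 to 0.0303 TPM, and over 324 bp with 83.64% identity to AT3G27906, at 43.8 to 57.3 TPM. A stretch of 103 bp inside AT5G35935 recurs at 99.03% identity next to the gene. Neither the partner of MRD1 nor that of the long alignment of AT5G35935 reached 1 TPM in any library.

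AT3G29120 is a member of a set of near-identical sequences. Its alignments fell at 5 other annotated loci, with 98.43% to 99.41% identity over 490 to 511 bp. A stretch of 150 bases shows how close they are (bases 405 to 554 of AT3G29120, chr3:11098909-11099058). All lines are written in the direction of AT3G29120, and capitals mark bases that differ from it.
AT3G29120: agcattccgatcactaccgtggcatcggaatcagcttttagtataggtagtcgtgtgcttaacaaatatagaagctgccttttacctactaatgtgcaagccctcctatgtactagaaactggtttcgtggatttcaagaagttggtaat
AT5G39060: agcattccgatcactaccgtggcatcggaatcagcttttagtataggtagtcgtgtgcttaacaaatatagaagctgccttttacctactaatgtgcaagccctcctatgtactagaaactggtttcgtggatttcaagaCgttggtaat
AT1G08105: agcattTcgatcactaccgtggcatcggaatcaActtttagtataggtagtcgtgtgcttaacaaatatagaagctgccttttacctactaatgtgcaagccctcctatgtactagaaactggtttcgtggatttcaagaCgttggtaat
AT5G39060 differed at 1 of the 150 bases and AT1G08105 at 3, and AT1G62766, AT1G16620 and AT1G18240 differed at 0. AT1G62766 and AT5G39060 were listed at 0 TPM in all 15 libraries. AT1G08105, AT1G16620 and AT1G18240 reached at most 0.0403, 0.119 and 0.0598 TPM. The 5 copies together came to at most 0.141 TPM in any library, so almost all of the level of the set was assigned to AT3G29120 in every group. Reads that match several copies cannot place a transcript, and which of the loci gave it was not tested.

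The genes around each locus were compared with Col-0 to see whether the differences extend along the chromosome. They were the 10 tested genes on each side, 60 in all, chosen by position, and they span 98.3 kb around MRD1 and HEI10, 287 kb around AT5G35935 and 186 kb around AT3G29120. In myb3r1, 1 of the 60 was called, lower, against 6.26% of all genes tested, and 2 were called with the replicate number as a block. In myb3r4, 6 were called, 3 higher and 3 lower, against 7.59%. In the double mutant, 20 were called, 6 higher and 14 lower, against 41.6%, and in the mNES line 12, with 4 higher and 8 lower, against 17.0%. None of the 60 was called in the same direction in all 3 mutants, beside 2.16% of all genes tested. At that share few of 60 would be called, so nothing is read from this count. Their median log2 difference was between -0.07 and 0.02 in the 4 groups, beside -0.03 to 0.05 over all genes tested. Leaving out 1 library moved the counts to 0 to 4 in myb3r1, 1 to 6 in myb3r4, 16 to 22 in the double mutant and 4 to 9 in the mNES line.

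Of the 20 genes around MRD1 and HEI10, the 1 called in myb3r1 was GLY3 (glyoxalase II), with a log2 difference of -0.27 (SE 0.063, limma adjusted p = 0.0228), and it is named after its value was seen. This call was lost without Col-0 replicate 2 or myb3r1 replicate 1 or 2 (limma adjusted p up to 0.0961). None of these 20 was called in myb3r4 by limma, with 6 at an unadjusted p under 0.05. Counts at an unadjusted p are given here and below without their share over all genes, so nothing is read from them. The nearest neighbours, named for their position, were close to Col-0. AT1G53460, 6.13 kb away, differed by 0.17, 0.02 and 0.14 in myb3r1, myb3r4 and the double mutant (SE 0.068), and none passed the test. MUM4, a rhamnose synthase gene of seed mucilage whose end overlaps HEI10 by 9 bp, differed by 0.16, 0.15 and 0.01 (SE 0.046), which did not pass the test, although with the replicate number as a block the 0.16 in myb3r1 did (limma adjusted p = 0.0472, from 0.0588). It rose by 0.19 in the mNES line (limma adjusted p = 0.0136). The rise of MUM4 in the mNES line was lost in the fit of the groups compared alone, and without Col-0 replicate 3 or mNES replicate 2 (limma adjusted p up to 0.0625). Only AT1G53560, a member of the ribosomal protein L18ae family 17.6 kb away, reached a difference of 1 in size among these 20 neighbours. It fell by 1.02 in the double mutant (SE 0.13, limma adjusted p = 5.23e-05), from a mean of 8.57 to 3.94 TPM.

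None of the 20 genes around AT5G35935 was called in myb3r1 by limma, with 8 at an unadjusted p under 0.05. Counts of calls were 2 in myb3r4, 7 in the double mutant and 4 in the mNES line. The nearest was AT5G35945, an F-box gene 3.78 kb away, with differences of 0.70, 0.32 and -0.24 in the mutants (SE 0.2) that did not pass the test. CYP79A4P, a cytochrome P450 pseudogene 26.5 kb away, had a mean of 1.76 TPM in Col-0. It fell by 1.64 in myb3r4 (SE 0.28, limma adjusted p = 0.00372) and by 1.55 in the double mutant (limma adjusted p = 0.000725), and its difference of -0.72 in myb3r1 did not pass the test. AT5G36040, 78.7 kb away and of unknown function, fell by 2.43 in the double mutant (SE 0.47, limma adjusted p = 0.00118), from 7.46 to 1.08 TPM. Its differences of -0.28 in myb3r1, -0.12 in myb3r4 and -1.04 in the mNES line (SE 0.47 each) did not pass the test.

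Around AT3G29120, 0 of 20 genes were called in myb3r1 by limma, with 5 at an unadjusted p under 0.05, and 4, 8 and 3 were called in myb3r4, the double mutant and the mNES line. AT3G29130, a KxDL motif gene only 0.405 kb away, stood at a mean of 43.7 TPM in Col-0 and differed by -0.10, -0.07 and -0.02 in the mutants (SE 0.051), none past the test. A run of 4 adjacent tested genes 47.4 to 59.8 kb away fell in the double mutant. AT3G29040, a DUF26 cysteine-rich secretory protein gene, fell by 2.51 (SE 0.27, limma adjusted p = 1.43e-05), from 22.4 to 3.61 TPM. AT3G29050, a receptor-like kinase gene, fell by 2.14 (SE 0.32, limma adjusted p = 0.00016). AT3G29060, an EXS family gene, fell by 1.39 (SE 0.2, limma adjusted p = 0.000122). AT3G29070, of the emp24 family of vesicle cargo proteins, fell by 1.44 (SE 0.29, limma adjusted p = 0.00163). In the single mutants the 4 genes had differences of -0.91 to -0.41 that did not pass the test, and 3 tested genes with mutant differences of -0.28 to 0.25 lay between the run and AT3G29120. They are named for their position. AT3G29075 was called higher in myb3r4 (limma adjusted p = 0.0287) and in the double mutant (limma adjusted p = 0.00013). VTI13 was called lower in myb3r4 (limma adjusted p = 0.0491), a call lost with the replicate number as a block. PME31 was not called in the mutants.

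**Figure D4:**
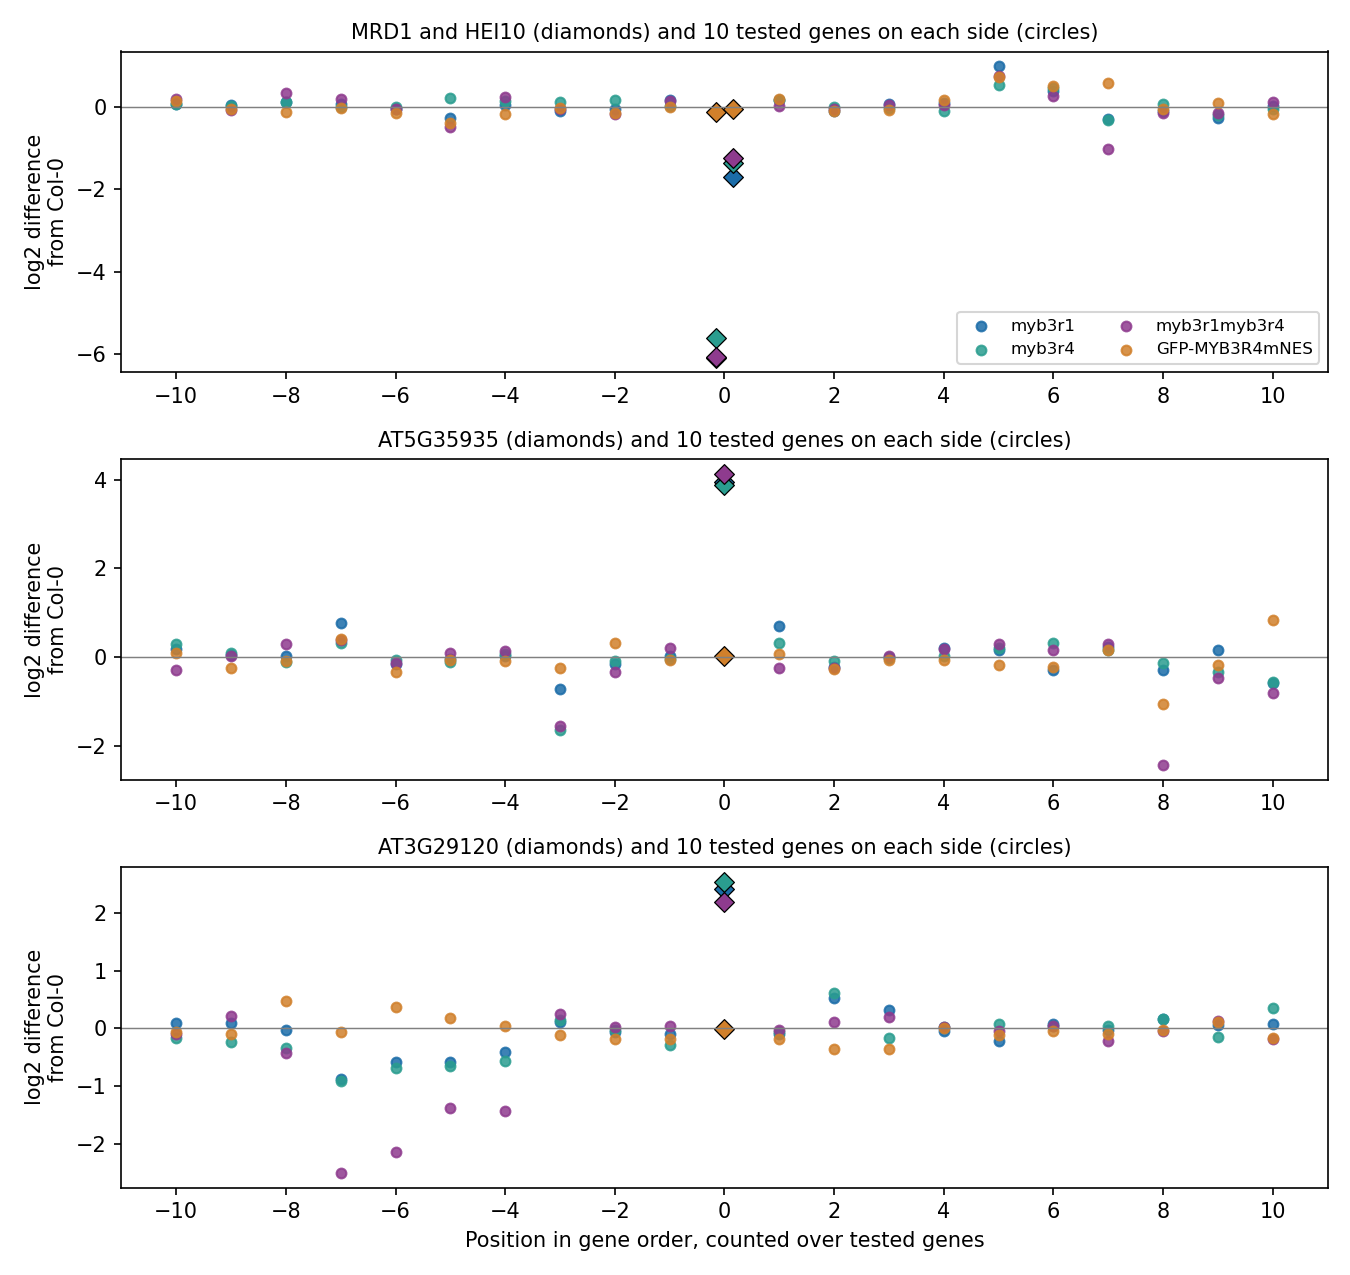
Log2(TPM + 0.5) differences from Col-0 of the tested genes on each side of the 3 loci (circles), in gene order on the horizontal axis, with the genes described as diamonds; colours are the 4 groups and each panel has its own vertical axis. The diamonds of the mutants lie away from the line at 0 and most circles lie near it, with the run at positions -7 to -4 of AT3G29120 lower in the double mutant.

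Genes whose profile over the 15 libraries was most like each of the 4 were named by Pearson's r in log2(TPM + 0.5). These r are descriptions over 15 libraries that share 5 groups, so the difference between mutants and the rest sets most of each value. Among the 4, r was 0.965 between MRD1 and HEI10, 0.949 between AT5G35935 and AT3G29120, and -0.997 between MRD1 and AT5G35935. For MRD1 the 5 highest were HEI10, AT1G73480 (0.948), AT1G22550 (0.942), AT3G30122 (0.941) and AT5G37474 (0.940). For HEI10 they were MRD1, AT1G22550 (0.947), the terpene synthase TPS03 (0.941), AT1G73480 (0.926) and AT4G16670 (0.912). AT1G22550, a transporter of the major facilitator superfamily, stood at 5.80 to 6.17 TPM in Col-0 and 5.07 to 6.61 TPM in the mNES line, against 2.70 to 3.91 TPM over the 9 mutant libraries. AT3G30122 stood at 2.83 to 4.47 TPM in the 6 other libraries and at 0.404 to 1.57 TPM in the mutants.

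For AT5G35935 the 5 highest were AT5G62360 (0.965), ESM1 (0.962), SMT2 and ECS1 (0.958 each) and AT2G25510 (0.954). For AT3G29120 they were AT2G25510 (0.951), AT5G35935, AT5G62360 (0.948), SMT2 (0.943) and AT5G38980 (0.939). Apart from AT5G35935 itself, these transcripts were abundant in every group and differed by less than the 4 genes. ESM1, a GDSL-like lipase known as an epithiospecifier modifier of glucosinolate breakdown, stood at 129 to 140 TPM in Col-0 and the mNES line and at 187 to 224 TPM in the mutants. AT5G62360, of the pectin methylesterase inhibitor superfamily, stood at 53.8 to 66.6 TPM and at 97.8 to 130 TPM in the same order. SMT2, a sterol methyltransferase of sterol synthesis, stood at 125 to 129 TPM and at 139 to 146 TPM, so a high r here came with a small difference. ECS1 ranged from 476 to 498 TPM in Col-0 to 825 to 870 TPM in the double mutant. The lowest r for AT3G29120 were those of MRD1, HEI10 (-0.943) and AT1G67626 (-0.914), and for MRD1 those of AT5G35935, SMT2 and AT5G62360 (-0.963 each for the last pair).

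**Figure D5:**
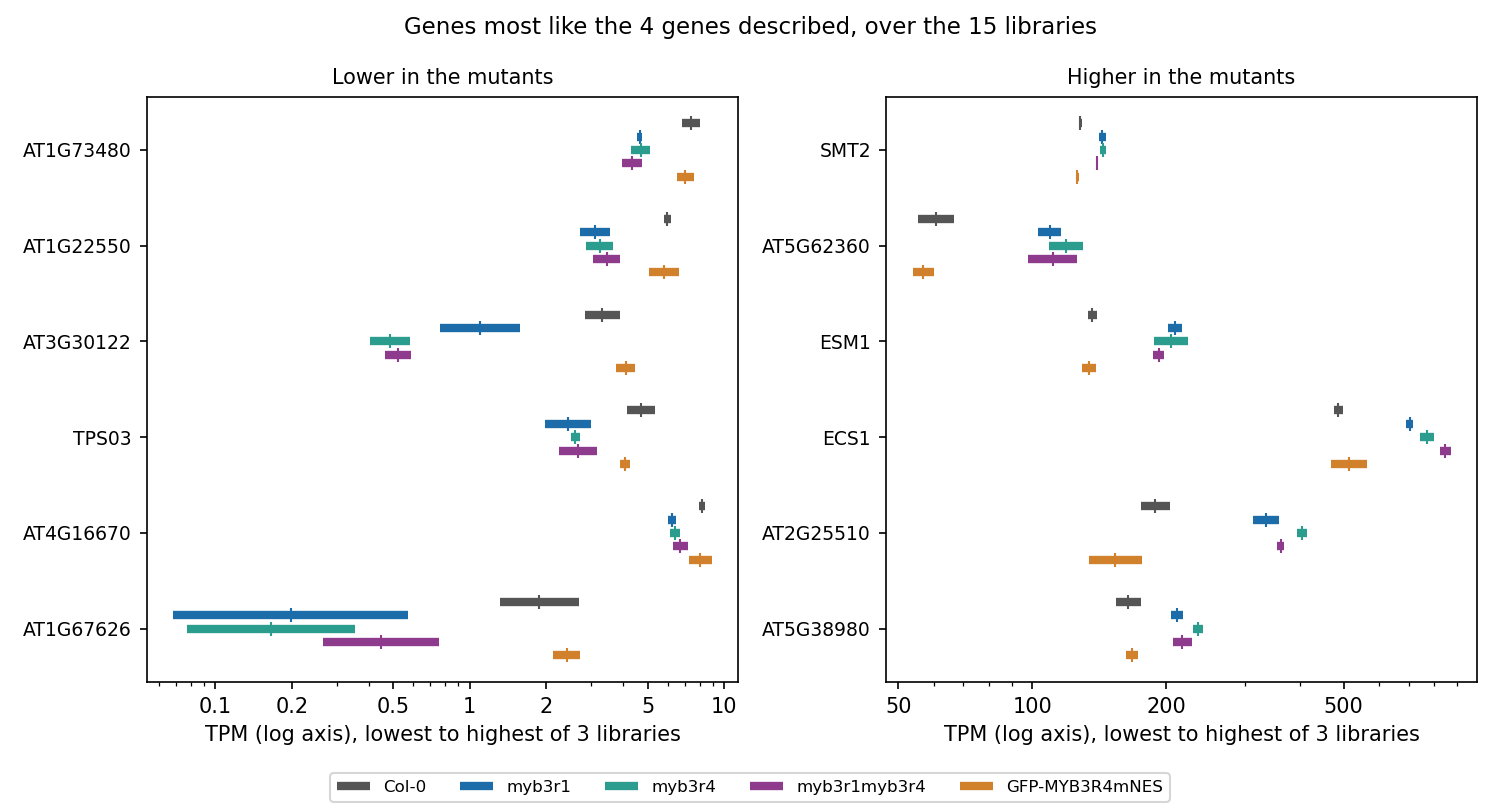
Lowest to highest TPM (bars, log axis) of 3 libraries in each group for 12 genes named by their r to the 4 genes, with a tick at the geometric middle of each bar. On the left the mutant bars lie below those of Col-0 and the mNES line, and on the right above them, with SMT2 between 125 and 146 TPM in every group.

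HEI10 was also set beside 25 tested genes of meiotic recombination, of 29 listed. In myb3r1, 0 were higher and 1 lower by limma, beside 3.16% of all genes called higher and 3.10% lower. Likewise 0 were called in myb3r4 by limma, with 4 at an unadjusted p under 0.05, beside 4.55% of all genes called higher and 3.04% lower. In the double mutant 16 rose and 0 fell, beside 24.5% and 17.1% of all genes (15 and 1 with the replicate number as a block), and in the mNES line 0 rose and 1 fell, beside 7.60% and 9.39%. The median log2 difference of the list was -0.03, 0.02, 0.34 and -0.13 in the 4 groups, against 0.01, 0, 0.05 and -0.03 over all genes tested. HEI10 was low in all 3 mutants, including the double mutant where most of the list was higher.

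ASY1, an axis protein of meiotic chromosomes, rose by 0.68 in the double mutant (SE 0.12, limma adjusted p = 0.000436). TOP3A, a topoisomerase that resolves recombination intermediates, rose there by 0.58 (limma adjusted p = 7.86e-05), and MLH3, which acts in class I crossovers, rose by 0.54 (limma adjusted p = 0.00834). DMC1, the meiotic strand exchange protein, fell by 0.25 in myb3r1 (limma adjusted p = 0.0395) and by 0.26 in the mNES line (limma adjusted p = 0.0154). The myb3r1 call of DMC1 was lost with no filter, with the replicate number as a block (limma adjusted p = 0.0625) and without any 1 of the 6 libraries compared (limma adjusted p up to 0.121). With the block PRD2, needed for meiotic double-strand breaks and named after its value was seen, passed in myb3r1 in its place, at 0.38 (limma adjusted p = 0.0113, from 0.0931). The mNES call was lost without Col-0 replicate 1 or mNES replicate 1 (limma adjusted p up to 0.0618). All 5 meiocyte markers are members of the list, and DMC1 alone made up 62% to 69.9% of their summed level, so the sum is no separate measure of these cells. It was 25.1 to 27.1 TPM in Col-0, 22.9 to 24.6 TPM in myb3r1, 23.1 to 27.8 TPM in myb3r4, 36 to 37.1 TPM in the double mutant and 21.2 to 24.1 TPM in the mNES line. In the double mutant ASY1, DMC1 and ZYP1A were among the genes that rose. The other markers, SPO11-1 (0.37) and REC8 (-0.10), were not called there. In myb3r1 and in the mNES line the sum lay below Col-0 without overlap. In myb3r4 it overlapped with Col-0, and in the double mutant it lay above. Whether the number of these cells bears on the HEI10 level was not tested. The 7 tapetum markers summed to 754 to 920 TPM in Col-0, 920 to 1110 TPM in myb3r1, 758 to 846 TPM in myb3r4, 1180 to 1380 TPM in the double mutant and 433 to 624 TPM in the mNES line. None was called in the single mutants by limma, with 1 in myb3r1 and 0 in myb3r4 at an unadjusted p under 0.05. In the double mutant 6 were higher, beside 24.5% of all genes, and in the mNES line 5 were lower, beside 9.39% (3 with the replicate number as a block). No marker of either type was listed at 0 throughout a group, and the part of these cells in the list counts was not tested.

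MRD1 was set beside 17 genes of methionine metabolism, in view of its name. In myb3r1 and in myb3r4 1 rose and 0 fell, beside 3.16% and 4.55% of all genes higher, and in both it was MTO3, an S-adenosylmethionine synthetase. It rose by 0.34 (SE 0.041, limma adjusted p = 0.000352) and by 0.27 (limma adjusted p = 0.00157). In the double mutant 3 rose and 6 fell, beside 24.5% of all genes higher and 17.1% lower. HMT3, a homocysteine methyltransferase, was at -2.64 (limma adjusted p = 1.66e-05), ATMS2, a methionine synthase, at -0.84 (limma adjusted p = 6.96e-06) and SAHH2, which recycles S-adenosylhomocysteine, at -0.67 (limma adjusted p = 5.8e-05). In the mNES line, where MRD1 was at 91% of Col-0, 6 rose and 0 fell, beside 7.60% of all genes higher and 9.39% lower. They include MGL, which degrades methionine, at 0.72 (limma adjusted p = 0.00102), CGS1, which makes the first dedicated step of methionine synthesis, at 0.28 (limma adjusted p = 0.000373), and SAHH2 at 0.27 (limma adjusted p = 0.0482). SAHH2 lost this call in 7 of 14 alternatives, among them the replicate number as a block (limma adjusted p = 0.0745), no filter, the groups compared alone, and leaving out Col-0 replicate 1 or 3 or mNES replicate 2 or 3. CGS1 carries the symbol MTO1 in RefSeq. It differed by 0.07 in myb3r1 and by 0.07 in myb3r4 (SE 0.038 each), which did not pass the test. In the double mutant CGS1 was among the genes that rose, by 0.21 (limma adjusted p = 0.000657). The list median was -0.01 in the double mutant and 0.10 in the mNES line, beside 0.05 and -0.03 over all genes tested.

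AT5G35935 and AT3G29120, as pseudogenes with little transcript in wild type, were set beside 25 genes of DNA methylation and transposon silencing. None was called in myb3r1 by limma, beside 3.16% of all genes higher. There 5 were at an unadjusted p under 0.05, a count without a share over all genes. In myb3r4 1 rose, beside 4.55% of all genes higher. That gene was VIM1, a reader of methylated DNA needed for maintenance of CG methylation, at 0.15 (SE 0.039, limma adjusted p = 0.0326). The call was lost in 7 of 14 alternatives, namely with the replicate number as a block (limma adjusted p = 0.0553), upper-quartile scaling, the groups compared alone, and without Col-0 replicate 2 or 3 or myb3r4 replicate 1 or 2. In the double mutant 15 rose and 0 fell, beside 24.5% of all genes higher and 17.1% lower, led by the demethylase DML3 at 0.58 (limma adjusted p = 0.00432), the CHG methyltransferase CMT3 at 0.55 (limma adjusted p = 1.16e-06) and VIM1 at 0.50 (limma adjusted p = 1.06e-06). In the mNES line 0 rose and 2 fell, beside 7.60% and 9.39% of all genes. These were DCL3, which cuts small RNAs for RNA-directed methylation, at -0.38 (limma adjusted p = 0.00295), and the methyltransferase DRM2, at -0.23 (limma adjusted p = 0.0107), a call lost in the fit of the groups compared alone (limma adjusted p = 0.0539). The list median was 0.03, 0.05, 0.26 and -0.10 in the 4 groups, beside 0.01, 0, 0.05 and -0.03 over all genes tested.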

How the data were processed

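The values deposited by the authors are TPM per gene for 15 libraries. They were made with Salmon against TAIR10 after FastQC, all without versions, per the submitters' processing notes. How transcripts were summed to genes, and whether strand was used, is not given in the sources used here. TPM removes length and library size, so depth and counting error are unknown. The 4 genes and the gene lists were chosen with earlier results of these data known.

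From the deposited TPM, log2(TPM + 0.5) was fitted with limma 3.58.1 in R 4.3.3 (1 mean for each of 5 groups, trended prior, robust off, 10 residual degrees of freedom, prior degrees of freedom 3.18) over the 21737 genes with at least 1 TPM in at least 3 libraries. All 4 genes described passed this filter, MRD1 through 6 libraries, HEI10 through 15, AT5G35935 through 9 and AT3G29120 through 13, so MRD1 and AT5G35935 passed through the groups where they are high. Two-sided p-values were adjusted by Benjamini-Hochberg over all genes tested, with a threshold of 0.05. Log2 differences are on the log2(TPM + 0.5) scale and understate the change of low genes, and SE is that of the fit. The fit was tested on simulated data. Genes were named by rule, namely the 4 genes, those that met the rule in numbers or lay just outside it, the 5 highest and 3 lowest by r, neighbours at 1 or more in size, and the 3 largest called differences of each list and contrast; further names are marked where they occur. Positions, annotations and sequences came from RefSeq TAIR10.1, and copies of at least 100 bp were found with BLAST 2.17.0. Libraries of the same replicate number share a labelled shift experiment across the groups, so the number was also fitted as a block. Same-numbered libraries of Col-0 and the other groups did not deviate together (r of -0.09 to 0.09 over 12 pairs, 0 of them over 0.1). Alternatives were other added constants, filters, scalings, samples in the fit, the replicate block, and leaving out each library; sums over the overlapping pair and over the copies were added after the data were seen.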

Additional observations from a re-analysis of the deposited data

How the results depend on the processing

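The log2 differences of the 4 genes in the mutants kept their sign in all 174 values over the alternatives. The genes were chosen for these differences, so the kept sign is no test of them. Of 58 values in the mNES line, 8 had the other sign, within -0.47 to 0.30. Of these 232 values, 21 moved by over 1 SD. The SD differs between genes, so this count does not give the size of a move. AT5G35935 in the double mutant was counted, from 4.13 to 4.09 with median-of-ratios scaling. AT3G29120 in the mNES line was not, from -0.01 to -0.47 without Col-0 replicate 1. Genes meeting the rule numbered 3 with 0.1 added, 4 at 5 TPM or more, and 5 to 9 on leaving out 1 library. Fitting only the groups compared gave 765 genes called in myb3r4 and 2078 in the mNES line (1650 and 3695 with all groups), and 2 neighbours in myb3r1, 2 in myb3r4 and 5 in the mNES line. Called neighbours were 2 in myb3r1 at 5 TPM or more and 7 in the mNES line with median-of-ratios scaling. Leaving out 1 library gave 663 to 1264 genes in myb3r1 (1360 with all), 831 to 1476 in myb3r4, 7185 to 8258 in the double mutant and 2495 to 3194 in the mNES line, and neighbours from 0 to 4, 1 to 6, 16 to 22 and 4 to 9. Gene counts moved beyond 1.5 times in myb3r1 without Col-0 replicate 2 (663) or 3 (806) or any myb3r1 library (762 to 880), and in myb3r4 without Col-0 replicate 1 (904) or 2 (905) or myb3r4 replicate 1 (863) or 2 (831). Neighbour counts did so in myb3r1 without any Col-0 library (4, 0 and 2 without replicates 1, 2 and 3) or myb3r1 replicate 1 or 2 (0 each), in myb3r4 without Col-0 replicate 1 (3) or 2 (1) or myb3r4 replicate 1 (2), and in the mNES line without any Col-0 library (6 to 7) or mNES replicate 2 (4). The replicate block gave 2 neighbours in myb3r1, ended the calls of DMC1 in myb3r1, VIM1 in myb3r4 and SAHH2 in the mNES line, gave calls to MUM4 and PRD2 in myb3r1, and left the 7 genes meeting the rule the same. Over all neighbours and list genes it ended 11 calls and gave 7. AT3G29120 in myb3r1 ranged from 1.95, without Col-0 replicate 1, to 2.78, with 0.1 added. Of 168 list counts under the alternatives, 21 were beyond 1.5 times the printed count. The causes were not tested. The 3 libraries of a group and unknown depth limit the precision, most for values under 1 TPM.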
